A study of Mus musculus with 90 samples.

Results

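Genes of the lung fibroblast and of the extracellular matrix were followed through a styrene inhalation study in mice. The set had 38 listed genes: collagens, elastic fibre proteins, crosslinking enzymes, adhesive glycoproteins, proteoglycans, a matrix protease with an inhibitor, and the PDGF receptors. Each gene was read from its brightest probe set, that with the highest mean over the 90 arrays, among the probe sets that the platform annotation ties to a single symbol. In this way 36 of the 38 genes were measured, out of 17097 genes tested in all, and Fbn1 and Thbs1 were not analysed here.

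Whole lung RNA came from 90 adult male C57Bl/6 mice obtained from Taconic, hybridised to 1 array per animal. There were 18 groups of 5 animals: 3 strains, 2 exposure lengths (1 or 4 weeks) and 3 chamber concentrations (0, 40 or 120 ppm styrene, where 0 ppm was air only). Exposure ran for 6 hours a day on 5 days a week, and animals were killed the morning after exposure ended. The strains were wild type (WT), a CYP2F2(-/-) knockout (KO), and a CYP2F2(-/-) transgenic line (TG) whose human transgenes are written 2F1, SA13 and 2B6. KO and TG mice of every dose, controls included, therefore lacked CYP2F2, a cytochrome P450 of club cells, the secretory cells of the small airways, that oxidises styrene. The promoter that drives the transgenes, and whether each line came from 1 founder, were not stated in the labels.

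Values were log2 signal, so a difference of 1 is a doubling, and they cannot be compared between genes because probe sets bind with different strength. A gene passed when limma's p, adjusted over 17097 genes by Benjamini-Hochberg, was below 0.05. The Cyp2f2 probe set followed the strain labels, with values from 12.73 to 13.39 in 30 WT animals, 11.53 to 12.28 in 30 KO animals and 11.58 to 12.13 in 30 TG animals. It fell by 1.41 in unexposed KO against unexposed WT (adjusted p = 7.43e-31), and it still gave signal in the KO. Array medians lay between 4.42 and 4.86. The lowest belonged to WT 120 ppm 1 week animal 3, which was among 4 arrays that stood apart with a quality weight under 0.25. The others were KO 40 ppm 4 weeks animal 1, TG control 1 week animal 5 and KO control 1 week animal 3.

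Fibroblasts are the main makers of the lung's connective tissue. They secrete fibrillar collagens that carry tension, elastic fibres that let the alveolar wall recoil, and the collagen VI microfibrils, fibronectin and proteoglycans that join these to cells. Lysyl oxidases crosslink collagen and elastin, and metalloproteinases with their inhibitors (TIMPs) set how fast matrix is removed. In the lung the PDGF receptor Pdgfra marks the fibroblasts of the alveolar wall, and Pdgfrb marks pericytes and other mural cells.

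The brightness of each probe set was checked, which does not show which cells made the RNA. For 30 members every group mean was above 4.42, the lowest array median. Col1a2, Col12a1, Col15a1, Fbln2 and Thbs2 lay below it in all 18 groups, and Loxl2 in some of them. These dim probe sets carry little information, so a flat Col1a2 does not show that the second chain of collagen I was flat. Of 22 further lung fibroblast markers outside the set, 1 passed at each dose in WT mice after 1 week (Pdgfrl, 0.58 higher at 40 ppm and 0.73 higher at 120 ppm).

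Because Col6a1 and Col6a2 rose and Pdgfra fell at 120 ppm in WT mice after 1 week, the promoters of these genes are shown, from 250 bases before to 50 bases after the RefSeq transcription start on GRCm38.p6. Col6a1 and Col6a2, which encode chains of collagen VI, are both on the minus strand of chromosome 10, and Pdgfra is on the plus strand of chromosome 5. Capitals mark matches on either strand to any of 5 motifs that were searched. These were the CCAAT box with letters CCAAT, the GC box with letters GGGCGG, the TATA box with letters TATAAA, the AP-1 site with letters TGANTCA and the E-box with letters CACGTG. RefSeq lists 2 starts for Col6a2, whose windows overlap.
Col6a1, chr10:76725995-76726294, minus strand: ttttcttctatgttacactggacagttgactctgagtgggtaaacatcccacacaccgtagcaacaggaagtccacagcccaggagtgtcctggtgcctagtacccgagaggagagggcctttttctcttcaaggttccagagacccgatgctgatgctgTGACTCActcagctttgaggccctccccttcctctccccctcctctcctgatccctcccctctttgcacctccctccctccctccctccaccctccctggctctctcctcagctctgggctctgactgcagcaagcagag
Col6a2, chr10:76623355-76623654, minus strand: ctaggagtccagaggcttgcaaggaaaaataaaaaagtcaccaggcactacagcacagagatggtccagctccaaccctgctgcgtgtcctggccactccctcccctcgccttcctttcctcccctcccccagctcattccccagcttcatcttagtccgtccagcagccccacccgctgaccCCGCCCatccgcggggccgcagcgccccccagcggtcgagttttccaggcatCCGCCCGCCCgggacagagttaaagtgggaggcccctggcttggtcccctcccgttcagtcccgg
Col6a2, chr10:76623581-76623880, minus strand: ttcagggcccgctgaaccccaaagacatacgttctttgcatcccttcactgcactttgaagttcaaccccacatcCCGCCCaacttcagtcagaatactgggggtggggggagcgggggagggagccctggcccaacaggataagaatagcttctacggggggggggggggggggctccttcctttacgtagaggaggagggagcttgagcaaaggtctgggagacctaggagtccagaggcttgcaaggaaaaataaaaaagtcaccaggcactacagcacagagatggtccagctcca
Pdgfra, chr5:75152001-75152300, plus strand: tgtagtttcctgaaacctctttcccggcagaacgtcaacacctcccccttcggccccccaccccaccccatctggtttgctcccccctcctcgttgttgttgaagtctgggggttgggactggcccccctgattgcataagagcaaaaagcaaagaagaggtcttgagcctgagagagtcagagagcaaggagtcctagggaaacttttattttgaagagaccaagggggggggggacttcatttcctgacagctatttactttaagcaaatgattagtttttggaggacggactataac
Col6a1 held 1 AP-1 match, the Col6a2 windows held 3 GC boxes (of which 2 overlap) and 1 GC box, and the Pdgfra window held none of the 5 motifs. Over all 32851 promoter windows, CCAAT was found in 37.4%, GGGCGG in 35.7%, TATAAA in 13.6%, TGANTCA in 7.81% and CACGTG in 7.15%. The table had 29 starts for 22 members, of which 8, 16, 5, 1 and 2 starts held these motifs in that order. These are descriptions of letters, not of binding.

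In WT mice exposed for 1 week, the collagen chains Col1a1 and Col6a1, the gelatinase Mmp2 and the microfibril protein Mfap4 rose at both doses, while Pdgfra fell. At 40 ppm 4 of the 36 genes rose (Col1a1, Col6a1, Mmp2 and Mfap4) and 1 fell (Pdgfra), against 3.82% of all genes that rose and 0.854% that fell. At 120 ppm 7 rose (those 4 with Col6a2, Col14a1 and Fn1) and 2 fell (Pdgfra and Pdgfrb), against 3.94% and 2.85% of all genes. The median change of the 36 was small at both doses, 0.07 at 40 ppm and 0.05 at 120 ppm, beside 0.03 and 0.00 over all genes, since the members moved in both directions. In bulk RNA, fewer cells of a type and less RNA per cell cannot be told apart.

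The other chain of collagen I, Col1a2, was dim and differed by 0.00 and -0.13. Among fibrillar collagens, which form the load-bearing fibres, Col1a1 read 6.14, 5.87, 6.59, 6.27 and 5.80 in the WT controls of 1 week. At 40 ppm it read 7.01, 6.66, 6.86, 7.04 and 6.80, and at 120 ppm it read 6.97, 6.61, 6.74, 7.00 and 7.30. All 10 exposed animals were above all 5 controls. The change was 0.74 ± 0.23 (SE; 1.67-fold, adjusted p = 0.0432) at 40 ppm and 0.79 ± 0.23 (1.73-fold, adjusted p = 0.0215) at 120 ppm. Col3a1, the fibrillar collagen of compliant tissues, was 0.35 higher at 40 ppm (adjusted p = 0.235) and 0.31 higher at 120 ppm (adjusted p = 0.26). At 120 ppm its lowest exposed animal (12.44) was nonetheless above its highest control (12.34). Col5a1 and Col5a2, chains of the collagen that starts fibrils, passed at neither dose.

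**Figure D1:**
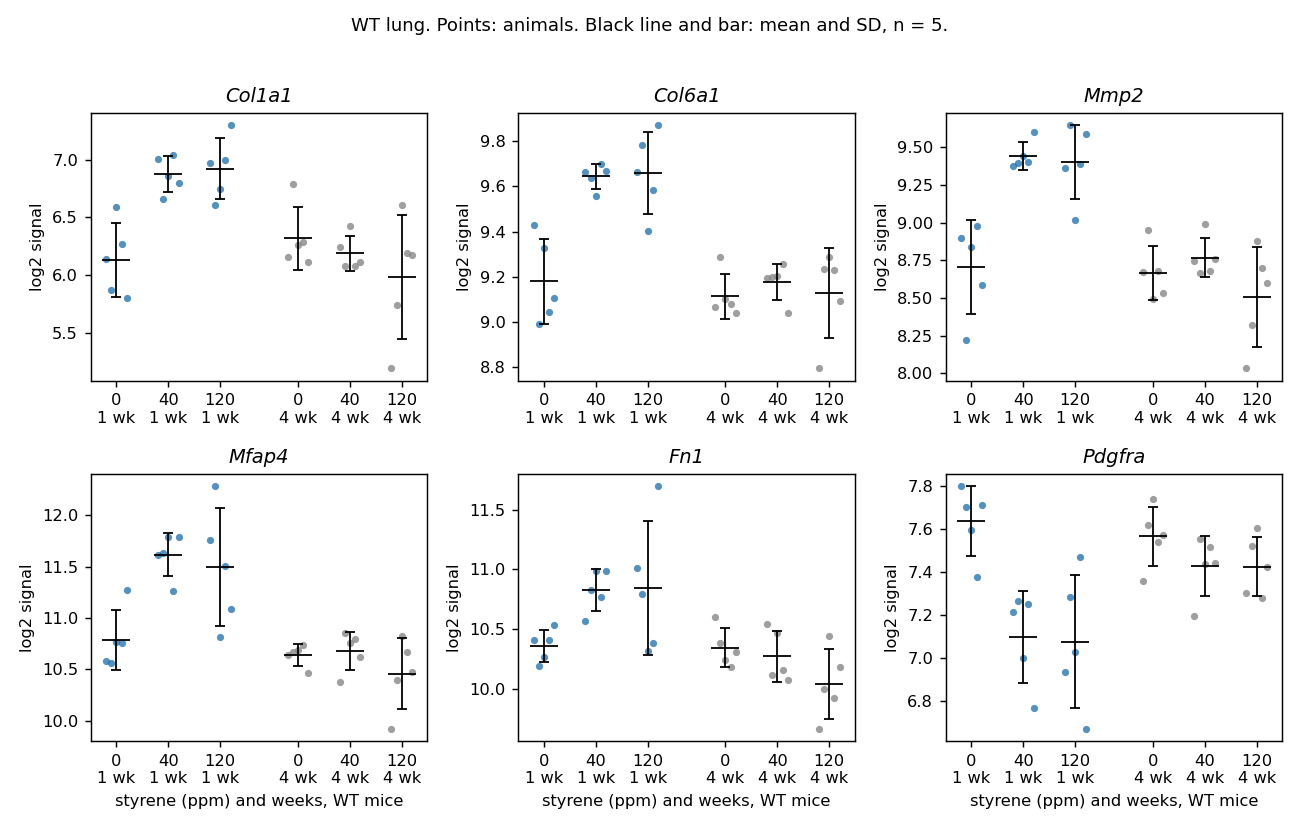
Log2 signal (vertical axis) of 6 genes in WT lung at 0, 40 and 120 ppm after 1 week (blue) and 4 weeks (grey); points are animals, lines and bars the mean and SD of 5. After 1 week all exposed animals lie above the controls for Col1a1, with Mmp2 and Col6a1 higher and Pdgfra lower, and after 4 weeks the doses overlap for all 6 genes.

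Collagen VI, a beaded microfibril around cells, has 3 chains among the members, of which Col6a1 rose at both doses, Col6a2 at 120 ppm and Col6a3 at neither. Col6a1 read 9.43, 8.99, 9.33, 9.05 and 9.11 in controls, 9.66, 9.64, 9.56, 9.70 and 9.67 at 40 ppm, and 9.66, 9.78, 9.40, 9.59 and 9.87 at 120 ppm. At 40 ppm the groups did not overlap, and at 120 ppm 4 of 5 animals exceeded every control. The change was 0.46 ± 0.14 (adjusted p = 0.0299) and 0.48 ± 0.14 (adjusted p = 0.0181). Col6a2 read 9.30, 9.02, 9.45, 9.0 and 8.90 in controls, 9.64, 9.52, 9.69, 9.59 and 9.80 at 40 ppm, and 9.81, 9.87, 9.58, 9.55 and 9.94 at 120 ppm, with no overlap at either dose. Its change missed the threshold at 40 ppm (0.52 ± 0.17, adjusted p = 0.0586) and passed at 120 ppm (0.62 ± 0.17, adjusted p = 0.0123). A second, dimmer Col6a2 probe set, which shares the same RNA, was 0.57 higher at 120 ppm (adjusted p = 0.021 over 28898 probe sets). Col6a3 was 0.19 higher at 40 ppm (adjusted p = 0.617) and 0.21 higher at 120 ppm (adjusted p = 0.502). Col14a1, a collagen on the surface of fibrils, was 0.43 higher at 40 ppm (adjusted p = 0.0878) and rose by 0.46 at 120 ppm (adjusted p = 0.0444). Its other, dimmer probe sets were 0.34 and 0.11 higher at 120 ppm and did not pass (adjusted p = 0.395 and 0.726 over 28898 probe sets). Col12a1 was dim throughout.

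The basement membrane collagens Col4a1, Col4a2, Col15a1 and Col18a1, found under epithelium and around vessels, did not pass at either dose. Their median change was -0.05 at 40 ppm and 0.11 at 120 ppm.

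Fibronectin and Mmp2 stood with the collagens. Fn1, the adhesive protein that cells use to lay down new matrix, read 10.41, 10.19, 10.26, 10.41 and 10.53 in controls, 10.57, 10.83, 10.99, 10.77 and 10.98 at 40 ppm, and 11.01, 10.79, 10.31, 10.38 and 11.70 at 120 ppm. The 40 ppm animals were all above the controls but the change missed the threshold (0.47 ± 0.16, adjusted p = 0.0662). The 120 ppm animals were spread more widely, 2 of them within the control range, and the change passed (0.48 ± 0.16, adjusted p = 0.0427). Without 120 ppm animal 5, the highest, it dropped to 0.27 (adjusted p = 0.388). Mmp2, a metalloproteinase that cleaves denatured and basement membrane collagen, read 8.90, 8.22, 8.84, 8.98 and 8.59 in controls, 9.38, 9.39, 9.44, 9.40 and 9.60 at 40 ppm, and 9.36, 9.64, 9.02, 9.39 and 9.58 at 120 ppm. No exposed animal was as low as a control, and the change was 0.74 ± 0.22 (adjusted p = 0.0312) and 0.69 ± 0.22 (adjusted p = 0.0374). Timp3, a matrix-bound inhibitor of metalloproteinases, was 0.27 lower at 120 ppm (adjusted p = 0.0574), and the brightest of its other probe sets fell by 0.30 (adjusted p = 0.0269). Tnc, an adhesion-modulating glycoprotein of remodelling tissue, was 0.52 and 0.61 higher without passing, with 120 ppm values from 4.90 to 7.64. Sparc, Postn and Thbs2, other matricellular proteins, did not pass. Neither did the proteoglycans: Dcn differed by -0.22 and -0.12, and Lum by 0.49 (adjusted p = 0.341) and 0.39 (adjusted p = 0.437).

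Over the 23 further probe sets of 17 members, 0 passed at 40 ppm and 2 passed at 120 ppm, beside 3.67% and 6.5% of all probe sets. The direction matched that of the brightest probe set in 18 of 23 at 40 ppm and 19 of 23 at 120 ppm.

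Elastic fibre genes moved unequally. Mfap4, which binds microfibrils and tropoelastin, read 10.58, 10.56, 10.77, 10.75 and 11.28 in controls, 11.61, 11.64, 11.78, 11.26 and 11.79 at 40 ppm, and 11.76, 12.29, 10.82, 11.51 and 11.09 at 120 ppm. Only control animal 5 reached the exposed range. It rose by 0.83 ± 0.21 (1.78-fold, adjusted p = 0.00761) at 40 ppm and by 0.71 ± 0.21 (adjusted p = 0.0255) at 120 ppm. Elastin itself (Eln) differed by -0.10 and 0.00, and Fbln1, Fbln2, Fbln5, Mfap2, Mfap5 and Ltbp2 did not pass at either dose. Of the crosslinking oxidases, Lox was lower by 0.58 (adjusted p = 0.124) and 0.57 (adjusted p = 0.11), a change that is given over both weeks further on.

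The PDGF receptors, tyrosine kinases through which PDGF drives growth of mesenchymal cells, went the other way. Pdgfra read 7.80, 7.70, 7.60, 7.38 and 7.71 in controls, 7.22, 7.26, 7.00, 7.25 and 6.77 at 40 ppm, and 6.93, 7.28, 7.03, 7.47 and 6.67 at 120 ppm. All 5 animals at 40 ppm and 4 of 5 at 120 ppm were below every control. It fell by 0.54 ± 0.12 (adjusted p = 0.00245) and by 0.56 ± 0.12 (adjusted p = 0.00124), the smallest adjusted p among the members at each dose. Pdgfrb read 7.17, 7.29, 7.20, 6.57 and 7.05 in controls and 6.53, 6.95, 6.21, 6.80 and 6.42 at 120 ppm. It fell by 0.48 ± 0.15 at 120 ppm (adjusted p = 0.0425), with 3 of 5 animals below every control.

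Groups that did not overlap at 40 ppm were found for 5 members above (Col1a1, Col6a1, Col6a2, Fn1 and Mmp2) and 1 below (Pdgfra), beside 5.66% and 1.25% of all genes. At 120 ppm they were found for 4 above (Col1a1, Col3a1, Col6a2 and Mmp2) and 0 below, beside 1.33% and 1.31%.

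These counts depended on single animals and on the estimate of spread. The 40 ppm count of 5 dropped to 2 without WT control animal 2 or 5 or 40 ppm animal 4 or 5 and to 3 without control animal 4, while the 120 ppm count of 9 dropped to 2 without control animal 2 or 120 ppm animal 5, to 5 without control animal 5 or 120 ppm animal 1 or 2, and to 0 when only the arrays compared were fitted. Without the 4 arrays that stood apart the counts were 7 and 10. The 10 did not include all of the 9, since Col14a1 and Pdgfrb then missed the threshold at 120 ppm. Gene by gene, each of the 10 animals compared was left out in turn. The 40 ppm call was lost in 8 omissions for Col1a1, 7 for Col6a1, 5 for Mmp2 and 0 for Mfap4 and Pdgfra. At 120 ppm it was lost in 7 for Pdgfrb, 6 for Col14a1 and Fn1, and 5 for Mmp2. It was lost there in 4 for Col6a1 and Mfap4, 3 for Col1a1, 1 for Col6a2 and 0 for Pdgfra.

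Other matrix genes and cell markers moved in the same comparisons. Of all genes, 3.82% rose and 0.854% fell at 40 ppm, and 3.94% rose and 2.85% fell at 120 ppm. Of 17 other matrix proteases and inhibitors 3 rose and 1 fell at each dose. The collagenolytic cysteine protease Ctsk rose by 1.25 and 1.26, the neutrophil collagenase Mmp8 by 1.39 and 1.08, and Mmp23 by 0.50 and 0.62, while stromelysin Mmp3 fell by 0.98 and 0.62. Of 21 TGF-beta genes 1 rose and 1 fell at 40 ppm and 1 rose and 3 fell at 120 ppm. The secreted matrix protein Tgfbi rose by 0.80 and 0.74 and the co-receptor Tgfbr3 fell by 0.41 and 0.46, and the co-receptor Eng and the inhibitor Smad6 fell by 0.52 and 0.58 at 120 ppm. At 120 ppm 1 of 16 collagen folding and crosslinking enzymes fell (the lysyl hydroxylase Plod2, by 0.58), as did 2 of 23 elastic fibre and matrix glycoprotein partners (Ltbp4 and Prelp, by 0.49 and 0.48). None of 15 other collagens, 11 laminins and partners or 3 PDGF ligands passed in limma at either dose.

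Cell division genes were 11 of 12 higher at 40 ppm and 12 of 12 at 120 ppm. Their mean per animal, relative to all arrays, ran from -0.50 to 0.02 in controls, 1.14 to 1.64 at 40 ppm and 0.17 to 2.87 at 120 ppm. Endothelial markers were lower in 2 of 15 at 40 ppm, and 5 of 15 lower with 1 higher at 120 ppm, and their mean ran from -0.04 to 0.15, -0.33 to -0.03 and -0.40 to -0.09. Macrophage markers were higher in 1 of 10 and 3 of 10, with means of -0.30 to 0.14, 0.22 to 0.40 and -0.12 to 0.81. Alveolar type II markers were higher in 4 of 8 and 2 of 8, with means of -0.17 to 0.10, 0.30 to 0.39 and -0.08 to 0.39. Smooth muscle and pericyte markers passed in 0 of 13 at both doses, with means of -0.22 to 0.07, -0.49 to -0.11 and -0.49 to 0.05, and among mesothelial markers 1 of 7, Krt19, was higher at 120 ppm. None of 10 cartilage, 10 heart and skeletal muscle, 3 adipocyte, 8 ciliated cell, 7 neutrophil, 9 B and T cell or 3 red cell markers passed in limma at either dose. Club cell markers were lower in 1 of 7 at each dose (Cyp2f2), and alveolar type I markers in 1 of 8 at 120 ppm (Hopx). The part of these cell types in the changes of the matrix genes was not tested.

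The exposed doses were then set against each other in WT mice. Between 120 and 40 ppm, 0 of 36 members passed at 1 week and 0 at 4 weeks (limma), and 0% of all genes did. At an unadjusted p under 0.05 there were 1 and 0 members, beside 5.11% and 2.13% of all genes. At 1 week the difference was 0.05 for Col1a1 (95% interval -0.41 to 0.51) and -0.02 for Pdgfra (-0.27 to 0.22), and 5 animals a group leave differences within those bounds undetected.

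After 4 weeks in WT mice no member passed at either dose (limma), and of all genes only 0.152% and 0.439% did. At an unadjusted p under 0.05 there were 3 members at 40 ppm and 6 at 120 ppm, beside 4.73% and 5.93% of all genes. The members leaned down: 25 of 36 were below their controls at 40 ppm and 29 of 36 at 120 ppm, with medians of -0.06 and -0.15 beside 0.01 and 0.01 over all genes. The members varied together within groups (median correlation 0.36), so these are not counts of independent genes and were not tested. At 120 ppm the mean over the 36 genes, relative to all arrays, ran from -0.40 to 0.07 between animals. Col1a1 differed by -0.13 and -0.34, Fn1 by -0.07 and -0.30, Mmp2 by 0.10 and -0.16, Mfap4 by 0.04 and -0.18 and Pdgfra by -0.14 and -0.14. The change at 4 weeks was also compared with that at 1 week directly. In this test 0 of 36 members passed at 40 ppm and 0 at 120 ppm (limma), beside 0.532% and 0.883% of all genes. At an unadjusted p under 0.05 there were 10 and 15 members, beside 6.14% and 7.16% of all genes. The smallest adjusted p were those of Fn1 (-0.78 ± 0.22, adjusted p = 0.0636) and Col1a1 (-1.13 ± 0.33, adjusted p = 0.0751) at 120 ppm. Without WT 120 ppm 1 week animal 3, whose array stood apart, 4 members passed at 120 ppm. Without WT 120 ppm 4 weeks animal 3 the number was 2, and without WT control animal 3 or 120 ppm animal 4 of 1 week it was 1.

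Elastin had the widest difference of any member at 4 weeks. Eln read 8.0, 7.57, 7.78, 8.33 and 8.62 in WT controls, 7.22, 7.26, 7.34, 7.64 and 7.82 at 40 ppm, and 6.83, 6.96, 7.56, 6.83 and 7.06 at 120 ppm. Every 120 ppm animal was below every control, yet the change of -1.01 ± 0.30 missed the threshold (adjusted p = 0.149), as did -0.61 at 40 ppm (adjusted p = 0.995). A second, dimmer Eln probe set differed by -0.34 at 120 ppm (adjusted p = 0.999). The groups also did not overlap for Col5a1 and Loxl1, below the controls at 120 ppm (3 members with Eln, beside 0.965% of all genes), and for Fbln1 and Loxl1, below them at 40 ppm (2 members, beside 0.871%).

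The same direction of Eln at 120 ppm was seen in the strains without Cyp2f2, again without passing. The difference was -0.27 in KO at 1 week, -0.67 in KO at 4 weeks, -0.98 in TG at 1 week (adjusted p = 0.267) and -0.42 in TG at 4 weeks. In TG mice at 1 week Eln read 7.33, 8.72, 8.59, 8.35 and 9.31 in controls and 7.12, 7.44, 7.77, 7.85 and 7.22 at 120 ppm. Averaged over weeks it differed by -0.50 in WT (adjusted p = 0.153), -0.47 in KO (adjusted p = 0.971) and -0.70 in TG (adjusted p = 0.177). At 40 ppm the direction was mixed, from -0.61 in WT at 4 weeks to 0.97 in KO at 1 week.

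Lox, the lysyl oxidase that crosslinks elastin and collagen, was low in exposed WT mice at both times. It read 7.84, 8.53, 8.24, 8.48 and 8.35 in the controls of 1 week, 7.76, 7.88, 7.61, 7.55 and 7.73 at 40 ppm and 7.77, 7.35, 7.38, 8.09 and 8.02 at 120 ppm. At 4 weeks it read 8.05, 8.39, 8.23, 8.60 and 8.63 in controls, 7.69, 7.90, 8.13, 8.54 and 8.29 at 40 ppm and 7.36, 7.68, 8.17, 7.61 and 7.94 at 120 ppm. The groups overlapped at each time, and with both weeks averaged Lox fell by 0.60 ± 0.15 at 120 ppm (1.51-fold, adjusted p = 0.00947) and was 0.43 lower at 40 ppm (adjusted p = 0.116). Pdgfra fell by 0.34 ± 0.09 at 40 ppm (adjusted p = 0.0117) and by 0.35 ± 0.09 at 120 ppm (adjusted p = 0.00642) over both weeks. These were the members called over both weeks: 0 rose and 1 fell at 40 ppm, beside 3.05% and 0.772% of all genes, and 0 rose and 2 fell at 120 ppm, beside 3.67% and 2.11%. Without the 4 arrays that stood apart these counts were 3 at 40 ppm and 6 at 120 ppm, and the first was 2 without WT control animal 5 of 1 week. Lox in KO and TG mice differed by -0.05 and -0.06 at 120 ppm over both weeks, and the difference of these changes from that of WT at 120 ppm did not pass at either week (smallest adjusted p = 0.346).

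**Figure D2:**
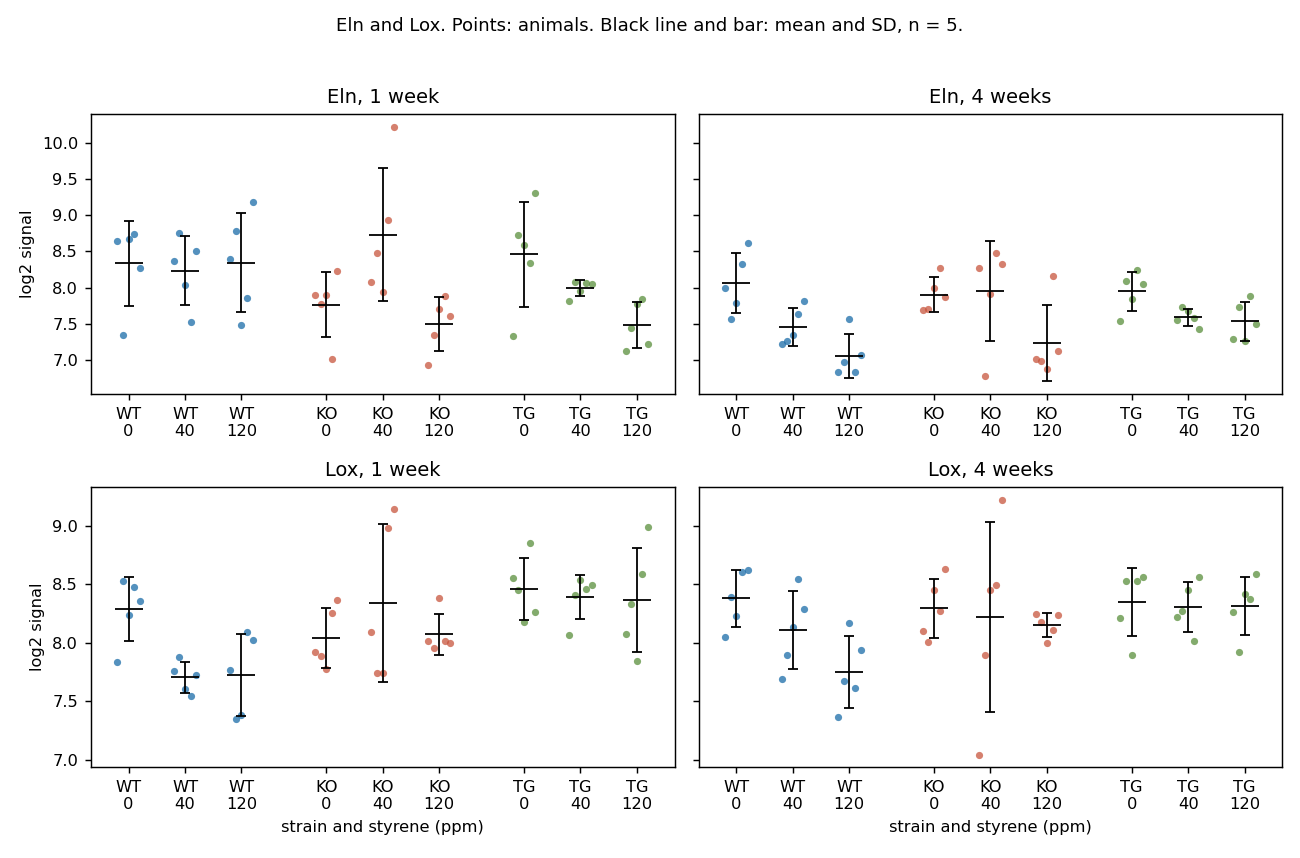
Log2 signal (vertical axis) of Eln (top) and Lox (bottom) by strain and styrene dose, after 1 week (left) and 4 weeks (right); points are animals, lines and bars the mean and SD of 5. Eln is lowest at 120 ppm in WT at 4 weeks (6.83 to 7.56) and Lox lies lower in exposed WT animals than in WT controls at both times, with overlap.

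Without Cyp2f2 no member passed in limma. In KO mice 0 of 36 passed in all 4 comparisons, beside 0%, 0%, 0% and 0.0234% of all genes (40 and 120 ppm at 1 week, then 40 and 120 ppm at 4 weeks). At an unadjusted p under 0.05 there were 16, 2, 1 and 1 members, beside 3.57%, 5.15%, 3.14% and 2.45% of all genes. In TG mice 0 passed in all 4, beside 0%, 0.0468%, 0% and 0.0117%, with 1, 3, 1 and 0 at that unadjusted p, beside 4.43%, 9.26%, 7.47% and 5.61% of all genes. With the weeks averaged 0 passed in KO, beside 0% at 40 ppm and 0.076% at 120 ppm, and 0 in TG, beside 0% and 0.275%. Here 20, 2, 1 and 1 members were at an unadjusted p under 0.05, beside 4.38%, 4.75%, 8.93% and 9.46% of all genes. Without TG control animal 1 of 1 week, 1 member passed in TG at 120 ppm with the weeks averaged. In TG at 40 ppm and 4 weeks the Lum groups did not overlap, with a difference of 0.53 (adjusted p = 0.651), beside 1.2% of all genes that lay above.

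In the KO group at 40 ppm for 1 week animals were widely spread. There 30 of 36 members were above their controls, with a median of 0.28 beside 0.00 over all genes, and none passed. Since the members varied together within groups, the 30 are not independent genes. Col1a1 read 5.65, 5.80, 6.19, 5.22 and 6.24 in KO controls and 5.90, 6.90, 6.36, 6.83 and 7.59 at 40 ppm, a difference of 0.90 ± 0.23 (adjusted p = 0.408). In WT at the same dose and time a smaller change of 0.74 ± 0.23 passed. The adjustment also depends on how many other genes changed, and 653 genes rose there while 0 passed in KO. The missed threshold in KO therefore does not show that Col1a1 responded less than in WT. Mmp2 differed by 0.78 (adjusted p = 0.56), Tnc by 0.78 (adjusted p = 1) and Eln by 0.97 (adjusted p = 0.704). Animal 5 was the highest for each of these 4 genes, with Eln at 10.23, and its mean over the 36 genes was 0.61. At 120 ppm, the higher dose, the same KO differences at 1 week were 0.31 for Col1a1 and 0.12 for Mmp2. The doses were not tested against each other in KO mice.

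The mean over the 36 genes, each as its difference from its own mean over 90 arrays, placed the groups within a narrow band. In WT at 1 week it was 0.02 ± 0.09 (SD, n = 5) in controls, 0.14 ± 0.05 at 40 ppm and 0.15 ± 0.13 at 120 ppm. In WT at 4 weeks it was 0.02 ± 0.09, -0.07 ± 0.04 and -0.18 ± 0.18. In KO at 1 week it was -0.08 ± 0.15, 0.23 ± 0.26 and -0.02 ± 0.17, and at 4 weeks -0.10 ± 0.07, -0.01 ± 0.24 and -0.12 ± 0.17. In TG at 1 week it was 0.14 ± 0.24, 0.11 ± 0.10 and -0.00 ± 0.19, and at 4 weeks -0.10 ± 0.06, -0.08 ± 0.09 and -0.05 ± 0.08. Groups overlapped in each strain, and no test was made on this mean because the genes were chosen with earlier results known.

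**Figure D3:**
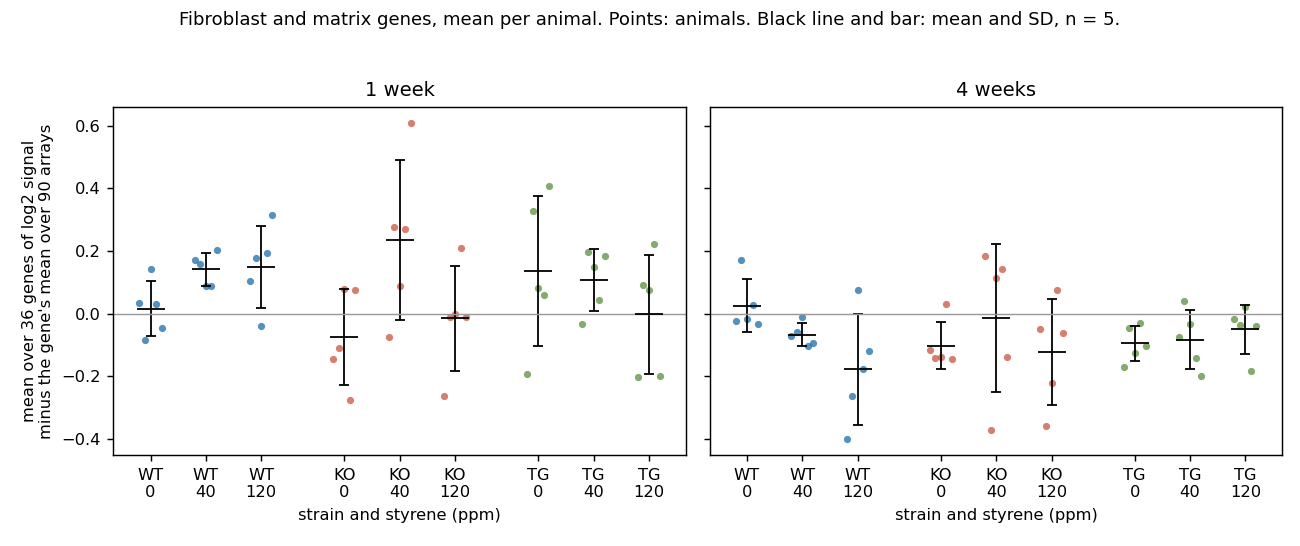
Mean over the 36 genes of log2 signal minus the gene's mean over 90 arrays (vertical axis) by strain and styrene dose, after 1 week (left) and 4 weeks (right); points are animals, lines and bars the mean and SD of 5. Most animals lie within 0.4 of 0, and the highest, at 0.61, is KO 40 ppm animal 5 at 1 week.

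**Figure D4:**
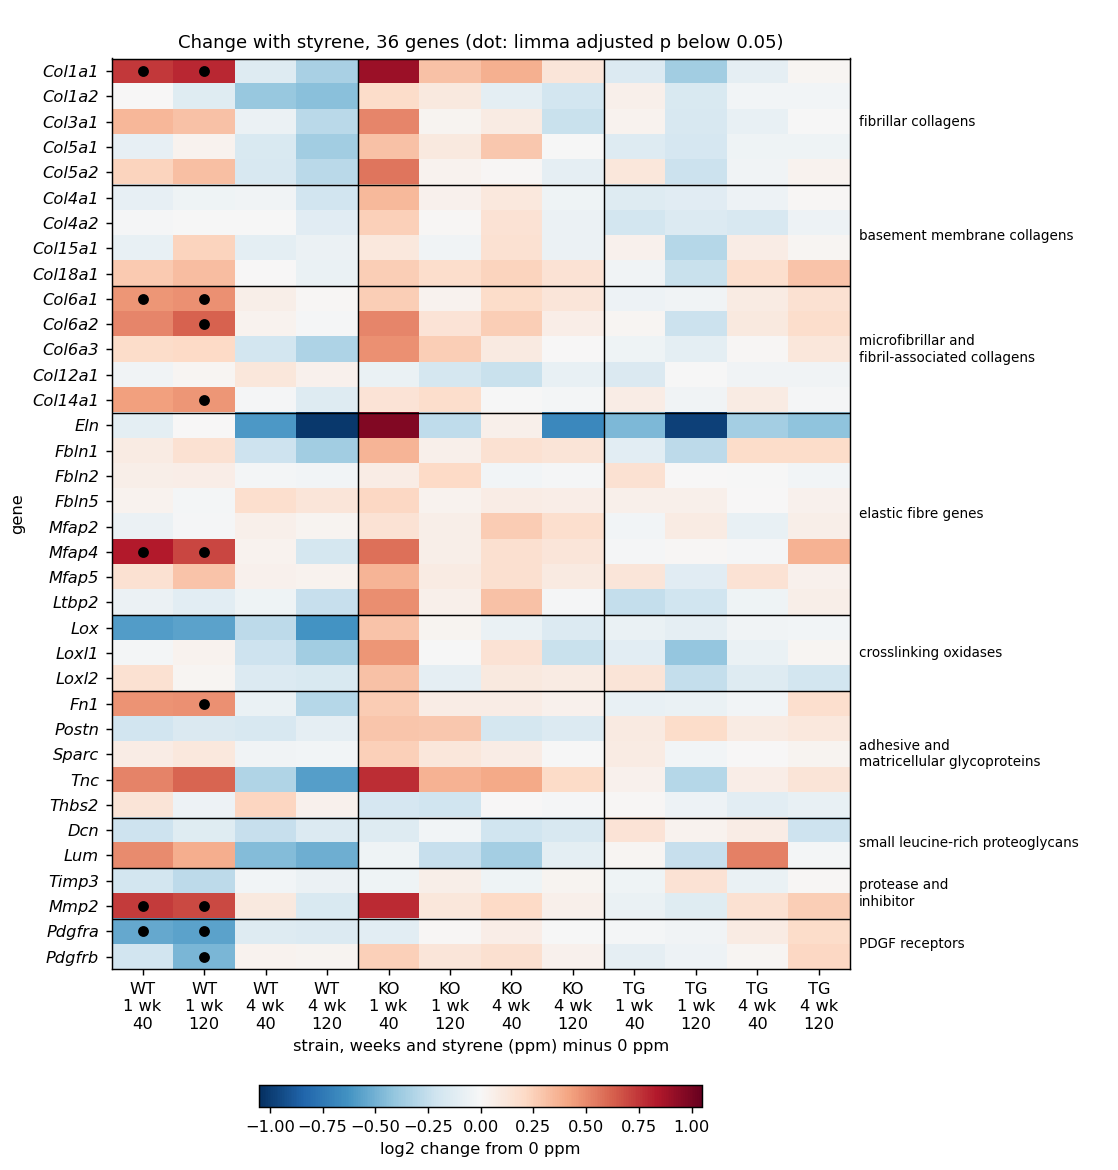
Log2 change from 0 ppm (colour) of the 36 genes (rows, grouped by role) in the 12 comparisons of strain, weeks and dose (columns); a dot marks a limma adjusted p below 0.05. The 14 dots all lie in the 2 WT columns of 1 week, 5 at 40 ppm and 9 at 120 ppm.

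Whether the change with styrene differed between strains was tested gene by gene. At 120 ppm and 1 week, 3 of 36 members differed between TG and WT: 1 higher and 2 lower, beside 1.17% and 3.42% of all genes. Col1a1 differed by -1.15 ± 0.33 (95% interval -1.80 to -0.50, adjusted p = 0.024), with a change of -0.36 in TG and 0.79 in WT. TG animals read 5.63, 6.88, 6.29, 6.32 and 7.28 in controls and 6.18, 6.26, 6.11, 6.50 and 5.54 at 120 ppm. Col6a2 differed by -0.84 ± 0.24 (adjusted p = 0.0235), from -0.23 in TG and 0.62 in WT. Timp3 differed by 0.43 ± 0.13 (adjusted p = 0.0424), from 0.15 in TG and -0.27 in WT. The TG controls were widely spread: animal 5, one of the arrays that stood apart, was the highest for Col1a1 and Col6a2 and the lowest for Timp3. The count of 3 dropped to 0 without TG control animal 5, WT control animal 2, WT 120 ppm animal 5 or TG 120 ppm animal 5, and to 1 without WT control animal 5, and rose to 8 without TG control animal 1 and to 10 without WT 120 ppm animal 3. It was also 3 without the 4 arrays that stood apart, but not with the same members, since Col1a1 then missed the threshold. It was 0 when only the arrays compared were fitted.

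**Figure D5:**
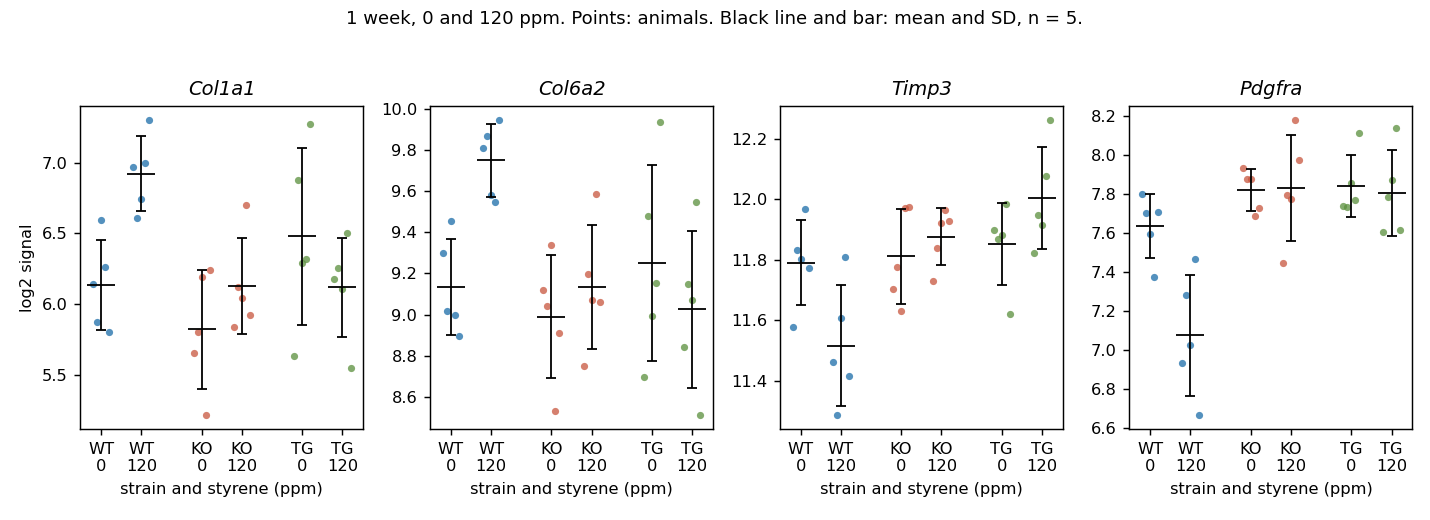
Log2 signal (vertical axis) of 4 genes after 1 week at 0 and 120 ppm in WT, KO and TG mice; points are animals, lines and bars the mean and SD of 5. Col1a1 and Col6a2 are higher and Pdgfra and Timp3 lower at 120 ppm than at 0 ppm in WT, and the doses overlap in KO and TG.

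Between KO and WT 0 of 36 members differed at 120 ppm and 1 week (limma), beside 2.37% of all genes. At an unadjusted p under 0.05 there were 5, beside 15.3%. The smallest adjusted p was that of Pdgfra, 0.57 ± 0.18 (adjusted p = 0.0572), from 0.01 in KO and -0.56 in WT, and in TG against WT it was 0.52 ± 0.18 (adjusted p = 0.0642). At 40 ppm and 1 week 0 differed between KO and WT (6 at an unadjusted p under 0.05), beside 1.25% of all genes (10.5%), and 0 between TG and WT (7), beside 1.53% (12.6%), where shares in parentheses are those of all genes at the unadjusted p. A single member passed in the TG comparison at 40 ppm without TG control animal 1, and in the KO comparison at 120 ppm without WT control animal 4, WT 120 ppm animal 4 or KO 120 ppm animal 1. At 4 weeks 0 differed between KO and WT at 40 or 120 ppm (1 and 0), beside 0.0234% and 0.0175% (2.5% and 2.48%), and 0 between TG and WT (2 and 3), beside 0.0117% and 0.0292% (5.71% and 4.08%). Between TG and KO, weeks averaged, 0 differed at 40 or 120 ppm (9 and 0), beside 0% and 0.00585% (6.1% and 2.35%). All these comparisons are limma's, and a strain that did not pass while WT did is not thereby shown to differ.

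The unexposed strains were then compared, 10 animals each. No member passed: 0 in KO against WT, 0 in TG against WT and 0 in TG against KO (limma), beside 0.275%, 0.287% and 0.135% of all genes. At an unadjusted p under 0.05 there were 9, 2 and 3, beside 6.4%, 8.92% and 5.31% of all genes. The smallest adjusted p was that of Mmp2, 0.50 lower in KO than in WT (adjusted p = 0.221). Tnc was 0.56 lower (adjusted p = 0.432), Col1a1 0.35 lower (adjusted p = 0.707) and Col6a3 0.30 lower (adjusted p = 0.41) in KO.

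Unexposed lungs of 4 weeks and of 1 week were compared over the 3 strains, 15 animals each. Here 2 members rose and 4 fell, beside 11.3% and 5.96% of all genes, numbers too small to set apart from these shares. The direction matched that of the brightest probe set in 8 of the 23 further probe sets of 17 members. Of these 23, 2 passed, beside 5731 of all 28898 probe sets. Among the members called between weeks only Mfap5 had a further probe set. These probe sets therefore cannot check the calls of the other members. Loxl2, a lysyl oxidase that crosslinks collagen IV, fell by 0.59 ± 0.11 (adjusted p = 0.000234), from a mean of 4.81 to 4.22, with 11 of 15 animals below every animal of 1 week and a 4-week mean under the dim limit. The microfibril protein Mfap5 fell by 0.36 ± 0.09 (adjusted p = 0.00457), from 8.97 to 8.61. Col6a1 fell by 0.23 (adjusted p = 0.0328) and Pdgfra by 0.22 (adjusted p = 0.0219), with overlap in both. Col1a2 rose by 0.23 and Fbln2 by 0.12, both on dim probe sets. The count of 6 dropped to 2 without TG control animal 5 of 1 week and to 3 without WT control animal 1 or 3 or KO control animal 3 of 1 week, or KO control animal 2 or TG control animal 1 of 4 weeks. It was 3 without the 4 arrays that stood apart, where Col6a1 and Pdgfra missed the threshold. Among the other lists, 3 of 23 matrix glycoprotein partners rose (Aspn by 0.71, Vcan by 0.55 and Ogn by 0.54) and 1 fell (Ltbp1 by 0.27), 4 of 21 TGF-beta genes rose and 2 fell, and of the PDGF ligands Pdgfd rose by 0.42 and Pdgfb fell by 0.26. Of 15 other collagens Col8a1 and Col4a3 rose by 0.46 and 0.42, and none fell. Of 11 laminins and partners Lama3 rose by 0.30, of 17 proteases and inhibitors Adamts5 rose by 0.45, and of 16 folding and crosslinking enzymes Colgalt1 fell by 0.18. Of 22 fibroblast markers outside the set 3 rose (Aspn, Fgf7 by 0.39 and Itga8 by 0.27) and none fell.

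Some markers of other cells also passed between the unexposed weeks, when 11.3% of all genes rose and 5.96% fell. The numbers in each list are too small to set apart from these shares. Of 13 smooth muscle and pericyte markers Rgs5 rose by 0.69 and Higd1b fell by 0.37. Of 12 cell division genes Mki67 rose by 0.77 and Top2a by 0.40, and of 9 B and T cell markers Ms4a1 rose by 0.75. Of 10 macrophage markers Itgam fell by 0.41, of 8 type II markers Muc1 fell by 0.22, of 8 type I markers Clic5 rose by 0.18, and of 8 ciliated cell markers Ccdc39 rose by 0.81. No mesothelial, cartilage, heart and skeletal muscle, adipocyte, endothelial, club cell, neutrophil or red cell marker passed in limma. Their part in the changes of the matrix genes was not tested.

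Apart from the groups, the members varied together from animal to animal. After each group's mean was removed, the median correlation of the 630 member pairs over 90 animals was 0.36 and 486 pairs were above 0. These values share the array and its normalization and are given as a description. Mmp2 (0.90), Col1a1 (0.88) and Col5a2 (0.87) followed the mean of the other members most closely, and 25 members were above 0.5. Another 7 were below 0.1: Postn (-0.35), Dcn (-0.22), Timp3 (-0.04), Col12a1 (-0.00), Lox (0.07), Col1a2 (0.08) and Lum (0.09).

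Known partners were tested as 7 pairs, by permutation of animals within groups with 100000 resamples, two-sided, for which p = 1e-05 is the smallest value that can be given. Col4a1 with Col4a2, which form 1 triple helix, had Pearson r = 0.90 and Spearman rho = 0.86 over 90 animals. Col6a1 with Col6a2 had r = 0.88 and rho = 0.85, Col1a1 with Col3a1 r = 0.85 and rho = 0.81, Dcn with Lum r = 0.79 and rho = 0.76, and Pdgfra with Pdgfrb r = 0.66 and rho = 0.63. The permutation p of each of these 5, for r and for rho, was 1e-05 before and after adjustment over the 7 pairs. This permutation asks only whether 2 genes vary independently within groups, and 486 of all 630 member pairs correlated above 0. These p therefore do not set the partners apart from other members that share an array. Without the 2 animals farthest from the median of the first gene, r was 0.88, 0.85, 0.83, 0.77 and 0.62. Decorin and lumican, small proteoglycans that bind collagen fibrils, thus varied together while Dcn did not follow the mean of the other members (-0.22). Eln with Lox had r = 0.28 (permutation p = 0.0701, adjusted 0.0818) and rho = 0.30 (permutation p = 0.0143, adjusted 0.0167), and r was 0.17 without those 2 animals, so the relation rested in part on them. Col1a1 with the dim Col1a2 had r = 0.06 (permutation p = 0.59, adjusted 0.59) and rho = 0.06 (permutation p = 0.563, adjusted 0.563), and r was 0.05 without those 2 animals.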

How the data were processed

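The authors' deposited table held log2 values for 45141 probe sets on 90 HT MG-430 PM arrays, made with RMA and with Partek per the submitters' processing notes, which give no version. Per the labels, RNA was purified over RNeasy columns after Trizol and amplified from its 3' end. No slide or scan date was used, and precision is limited by 5 animals, hence 5 arrays, a group. Of the probe sets, 28898 had 1 gene symbol, 551 several and 15588 none, and 104 were controls. The brightest probe set stood for each of 17097 genes. limma 3.58.1 in R 4.3.3 fitted the 18 group means (72 residual degrees of freedom), with eBayes, Benjamini-Hochberg adjustment over all genes and a threshold of 0.05. The fit was tested on simulated data. All members could be named. From each other list, up to 4 genes that passed were named by size of change. The members and lists were chosen with earlier results of these data known. Each sample is labelled a biological replicate, and nothing in the labels says that replicate numbers pair animals. Alternatives were another normalization, dim genes left out, medians over probe sets, trend and robust fits, array weights, a replicate block, arrays of low weight left out, a covariate made of 24 poly-A control probe sets, only the arrays compared, and each animal left out.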

Additional observations from a re-analysis of the deposited data

Results flagged for a closer look

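In the KO controls of 4 weeks, the mean over the 36 genes of animal 4 was 0.029, while the other 4 animals lay between -0.146 and -0.116. In the WT controls of 1 week, Mfap4 of animal 5 was 11.28 and the other 4 animals lay between 10.56 and 10.77. Each stood apart from the rest of its group by Dixon's test, which marks about 1 group in 20 by chance, and 41 groups of values were examined, of which these 2 were marked. The change with 120 ppm styrene after 1 week differed between TG and WT for Col1a1 (-1.15), Col6a2 (-0.84) and Timp3 (0.43) by the interaction test of limma.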

How the results depend on the processing

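No member that passed changed the sign of its log2 change under any setting or omission, but counts of members that passed did move. In WT after 1 week, the count was 10 with array weights and 8 with only the arrays compared at 40 ppm (5 in the reported fit), and 0 with only the arrays compared at 120 ppm (9). In WT at 120 ppm after 4 weeks it was 2 under each of these settings (0). With weeks averaged, the 40 ppm count (1) was 6 with array weights, 3 without arrays of low weight, 4 using the poly-A covariate and 6 with only the arrays compared, and the 120 ppm count (2) was 4 with array weights, 6 without arrays of low weight and 6 with the covariate. Array weights gave 1 for unexposed KO against WT (0), and the median over probe sets gave 1 for unexposed TG against KO (0). Between unexposed weeks (6) it was 3 with dim genes left out and 3 without arrays of low weight. For the difference from WT after 1 week, KO gave 2 at 40 ppm with array weights (0), and at 120 ppm 1 with array weights, 1 without arrays of low weight and 2 using the poly-A covariate (0). TG gave 1 with array weights and 1 with the covariate at 40 ppm (0), and 1 with array weights and 0 with only the arrays compared at 120 ppm (3). The difference between weeks in WT gave 2 with only the arrays compared at 40 ppm (0), and at 120 ppm 1 with quantile normalization again, 1 with array weights, 4 without arrays of low weight and 2 with the covariate (0). The cause was not tested.

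With each animal left out in turn, the counts ranged from 2 to 7 and from 2 to 9 in WT after 1 week at 40 and 120 ppm, 1 to 2 and 2 to 3 with weeks averaged, and 0 to 1 in TG at 120 ppm with weeks averaged. They ranged from 2 to 6 between unexposed weeks, 0 to 1 for KO against WT at 120 ppm, 0 to 1 and 0 to 10 for TG against WT at 40 and 120 ppm, and 0 to 4 for the WT difference between weeks at 120 ppm. Mfap4 and Pdgfra in WT at 40 ppm and 1 week, Pdgfra at both doses and Lox at 120 ppm with weeks averaged, and Loxl2 and Mfap5 between weeks passed under every setting that tested them and every omission that was run.

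The replicate numbers were not treated as pairing animals, since nothing in the labels says that they do. Of same-number pairs 45% had a residual correlation over 0.1, and the share for other numbers was not computed. The median correlation was 0.069 for the same number and -0.020 for other numbers. As a hint of pairing from the data and not the design, 40 of 90 animals correlated best with their own number among the 5 numbers. With a replicate block the WT 40 ppm count with weeks averaged was 2. Precision is limited by 5 arrays a group and, for 5 members, by signal below the array medians.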
